A study of Homo sapiens with 6 samples.

Results

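The 40 hypoxia response and glycolysis genes described here were chosen by name, as the rows of the deposited read-count table whose gene name matches a listed symbol. All 40 were found among the 58735 rows, and 38 of them were among the 15054 genes that passed the filter on low counts and were tested. CA9 and ADM did not pass it. The members fall into 6 roles: 6 genes of oxygen sensing and HIF factors, 11 HIF targets outside glycolysis, 2 glucose transporters, 16 glycolytic enzymes, 3 regulators of glycolytic flux and 2 lactate transporters. The listed comparison sets the HIF targets outside glycolysis against the glycolytic enzymes.

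RNAseq was performed on 3 biological replicates of C4-2B, a cell line that models castration resistant prostate cancer (CRPC), and on 3 of RC4-2B. RC4-2B is a subclone of C4-2B obtained by repeated cycles of cabazitaxel (CBZ), a taxane that stabilises microtubules, at concentrations raised from 0.1 nM to 20 nM over 4 months. Both lines were kept in RPMI medium, with 10% FBS by the sample labels, while the methods of the study name charcoal-stripped serum as well. The methods name no drug and no low-oxygen treatment for the cells from which RNA was taken. RC4-2B stands for 1 selected subclone, so that a difference between the lines cannot be told apart from a difference between any 2 clones. In RNA from whole cultures, a smaller share of cells expressing a gene cannot be told apart from less RNA per cell.

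HIF1A and EPAS1 (also called HIF2A) encode the oxygen-regulated subunits of the hypoxia-inducible factors (HIF), which pair with the stable subunit ARNT and bind short DNA cores in the control regions of their targets. When oxygen is present, prolyl hydroxylases of the EGLN family mark the subunits and the VHL ubiquitin ligase has them degraded, so that most of this control acts on protein rather than on RNA. Many glycolytic enzymes are HIF targets. The glycolytic pathway turns glucose into pyruvate, lactate dehydrogenase turns pyruvate into lactate, and monocarboxylate transporters carry lactate across the cell membrane.

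Libraries held 15707134 to 18052517 counts. Values per library are given below as CPM (counts scaled to a common library size), adjusted by TMM, edgeR's scaling for library composition, and 3 counts, taken as the floor of detection, corresponded to 0.170 to 0.188 CPM. RC4-2B replicate 2 stood apart from the other RC4-2B libraries. Over 11259 genes, the SD of its log2 CPM difference was 0.63 to replicate 1 and 0.56 to replicate 3, against 0.25 between those 2 libraries and 0.17 to 0.22 within C4-2B. Luminal prostate markers were detected for 8 of 8 genes, with a summed level of 3611 to 3705 CPM in C4-2B and 2556 to 3288 CPM in RC4-2B, and KLK3 and TMPRSS2 among them were lower in RC4-2B. Basal markers summed to at most 0.968 CPM, with KRT5 and TP63 at 0 in all libraries, and leukocyte markers to at most 0.512 CPM. Fibroblast markers summed to 21.6 to 25.8 CPM in C4-2B and 24.2 to 38.0 CPM in RC4-2B, mostly COL1A1, with 3 of 6 (COL1A2, DCN and LUM) at 0 in every library. The endothelial list summed to 7.47 to 8.14 CPM in C4-2B and 3.64 to 5.07 CPM in RC4-2B, nearly all VWF, with PECAM1 at 0. The part of these marker levels in the results below was not tested.

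EPAS1 was the member that passed the test in the comparison of all 6 libraries. With edgeR (quasi-likelihood F test, p-values adjusted after Benjamini and Hochberg), 1 of 38 tested members was higher in RC4-2B, where 1.08% of all tested genes were, and 0 of 38 were lower, where 0.903% of all genes were. At an unadjusted p under 0.05, the same test had 11 members higher and 4 lower, against 12% and 9.42% of all tested genes. The CPM of the lines did not overlap for 17 members. Of these, 12 (31.6%) were higher in RC4-2B, where 17% of all tested genes were, and 5 (13.2%) were lower, where 17.1% of all tested genes were. The median log2 fold change (RC4-2B minus C4-2B) of the 38 members was 0.055, and that of all tested genes was 0.0063.

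**Figure D1:**
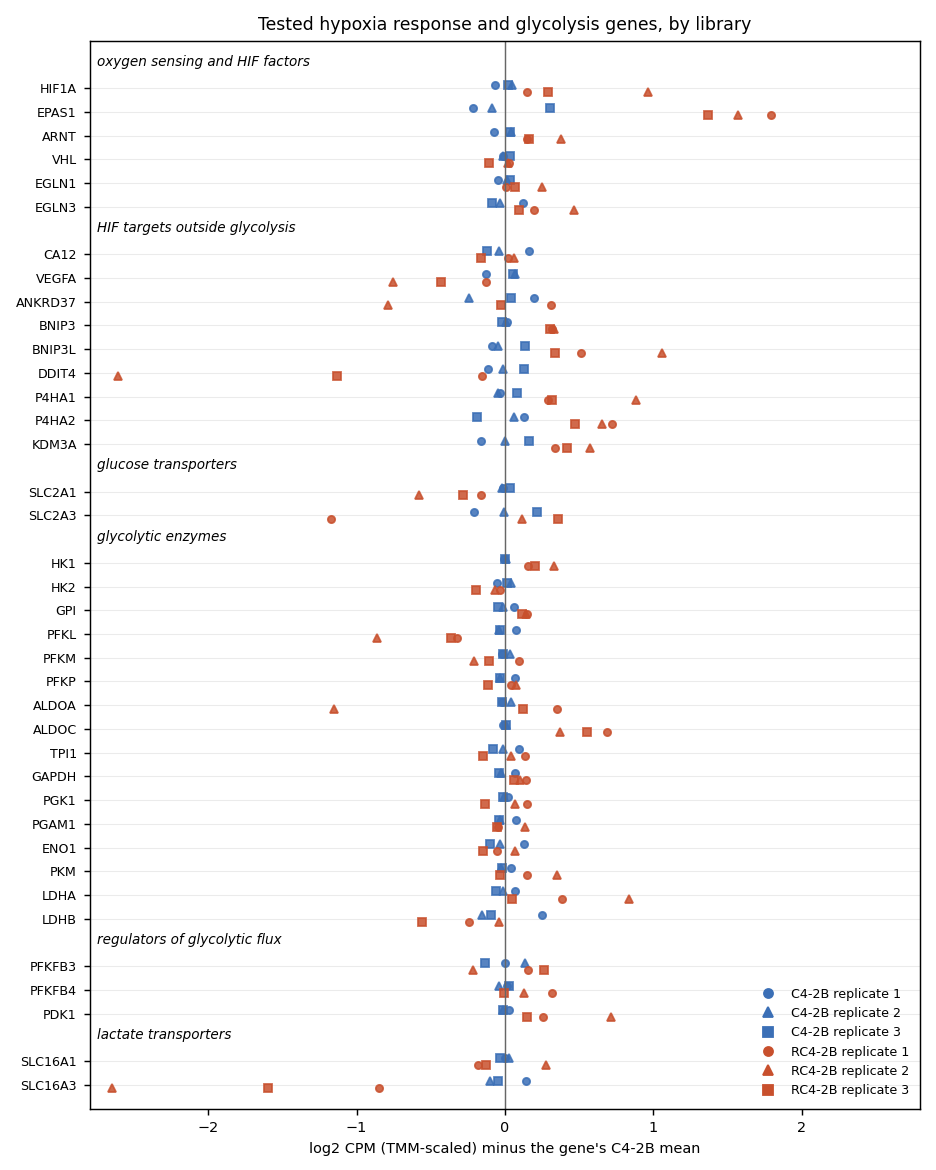
TMM-scaled log2 CPM of the 38 tested members in each library (x axis), minus the mean of the 3 C4-2B libraries, by role (y axis). Blue symbols are C4-2B and red symbols RC4-2B, with a circle, triangle and square for replicates 1, 2 and 3. The 3 RC4-2B libraries of EPAS1 lie to the right of its C4-2B libraries and those of SLC16A3 to the left, and RC4-2B replicate 2 is the farthest out for DDIT4, SLC16A3, ALDOA and HIF1A.

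How many members passed depended on the analysis. DESeq2 called 4 higher (EPAS1, ALDOC, BNIP3L and P4HA2) and 1 lower (SLC16A3), where it called 3.28% of all genes higher and 2.64% lower. A correction for GC content in edgeR gave 4 higher (EPAS1, ALDOC, BNIP3 and BNIP3L) and 1 lower (SLC16A3), where 4.36% of genes were higher and 3.25% lower. Without RC4-2B replicate 2, edgeR called 7 higher (EPAS1, ALDOC, BNIP3, BNIP3L, KDM3A, P4HA1 and P4HA2) and 2 lower (SLC16A3 and PFKL), where 6.5% of genes were higher and 6.02% lower. With the GC correction and without that library, 5 members were higher and 2 (SLC16A3 and LDHB) were lower, where 6.74% and 6.59% of genes were.

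Promoters of 4 members are shown because the results turn on these genes. EPAS1 passed the test, SLC16A3 had the lowest log2 fold change, ALDOC had the smallest p-value among the glycolytic enzymes, and BNIP3, chosen after its values were seen, had the smallest relative spread between replicates among the HIF targets whose groups did not overlap. Each sequence runs 5′ to 3′ on the strand of the gene, from 250 bases before to 50 after the RefSeq start, in GRCh38.p14. Capitals mark the HIF-binding core, searched as ACGTG or GCGTG and, on the other strand, CACGT or CACGC, with overlapping matches counted separately.
EPAS1: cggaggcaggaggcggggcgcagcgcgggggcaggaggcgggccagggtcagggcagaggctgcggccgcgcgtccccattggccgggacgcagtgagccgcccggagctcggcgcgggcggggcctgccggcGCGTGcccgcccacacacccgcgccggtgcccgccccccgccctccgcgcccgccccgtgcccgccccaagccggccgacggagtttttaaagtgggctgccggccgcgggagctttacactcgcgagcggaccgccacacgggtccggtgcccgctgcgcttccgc
BNIP3: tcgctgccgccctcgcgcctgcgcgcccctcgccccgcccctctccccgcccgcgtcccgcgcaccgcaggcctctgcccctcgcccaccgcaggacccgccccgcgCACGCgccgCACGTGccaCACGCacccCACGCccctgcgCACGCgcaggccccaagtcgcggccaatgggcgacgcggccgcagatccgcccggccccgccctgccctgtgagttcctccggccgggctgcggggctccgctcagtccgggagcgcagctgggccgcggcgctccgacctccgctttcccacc
ALDOC: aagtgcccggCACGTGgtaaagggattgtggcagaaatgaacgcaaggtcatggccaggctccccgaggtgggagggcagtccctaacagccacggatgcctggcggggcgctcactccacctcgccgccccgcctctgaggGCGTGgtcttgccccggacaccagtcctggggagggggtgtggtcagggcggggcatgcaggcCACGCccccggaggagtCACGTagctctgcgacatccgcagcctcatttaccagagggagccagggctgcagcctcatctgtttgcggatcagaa
SLC16A3: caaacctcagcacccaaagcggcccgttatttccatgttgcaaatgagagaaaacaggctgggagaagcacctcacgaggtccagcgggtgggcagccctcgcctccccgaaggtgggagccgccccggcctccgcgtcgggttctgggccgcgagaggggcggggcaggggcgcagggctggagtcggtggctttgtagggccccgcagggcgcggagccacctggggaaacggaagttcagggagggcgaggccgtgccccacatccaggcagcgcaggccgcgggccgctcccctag

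The windows are chr2:46297157-46297456 (plus strand) for EPAS1, chr10:131981874-131982173 (minus strand) for BNIP3, chr17:28576846-28577145 (minus strand) for ALDOC and chr17:82228185-82228484 (plus strand) for SLC16A3. They hold 1, 6, 5 and 0 matches, in that order. A promoter was given for 35 of the 40 members, and 25 of these (71.4%) held at least 1 match, against 48.4% of 27305 promoters and 63.9% of the 10383 promoters of tested genes. Among the HIF targets outside glycolysis 8 of 9 (88.9%) held a match, and among the glycolytic enzymes 11 of 16 (68.8%). No promoter was given for VHL, VEGFA, BNIP3L, SLC2A3 and SLC16A1. The shares were not matched for promoter GC content. A match is a run of letters, and occupancy was not measured.

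EPAS1 lies at chr2:46293667-46386703 on the plus strand in the deposited annotation, whose gene model begins upstream of the promoter window above. It had 18, 21 and 28 reads in the C4-2B replicates, against 75, 70 and 59 in the RC4-2B replicates. Its CPM was 1.07, 1.19 and 1.59 in C4-2B, against 4.69, 3.99 and 3.47 in RC4-2B. The lowest RC4-2B library was above the highest C4-2B library. The means were 1.29 ± 0.27 and 4.05 ± 0.61 CPM (SD, n = 3), a 3.15-fold increase. Its log2 fold change of 1.65 had a standard error of 0.26 and an edgeR adjusted p of 0.0212. It was 1.66 without RC4-2B replicate 2 (edgeR adjusted p = 0.0018) and 1.70 with the GC correction (edgeR adjusted p = 0.0040). The call was lost without C4-2B replicate 1 (edgeR adjusted p = 0.14), 2 (0.13) or 3 (0.077) and without RC4-2B replicate 3 (0.064), with a log2 fold change of 1.53 to 1.83 over all libraries left out.

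EPAS1 was also the member of this role with the lowest level per length. On the FPKM scale, which divides counts by gene length and library size, EPAS1 averaged 0.158 in C4-2B and 0.505 in RC4-2B, against 16.3 and 23.8 for HIF1A. VHL, the substrate receptor of the ligase that marks HIF subunits for degradation, had the highest FPKM of the role, 24.2 in C4-2B and 24.3 in RC4-2B. The level of VHL was 113, 113 and 116 CPM in C4-2B and 116, 116 and 106 CPM in RC4-2B, and the groups overlapped.

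HIF1A (chr14:61695513-61748259, plus strand) had 89.5, 97.0 and 95.1 CPM in C4-2B and 104, 183 and 115 CPM in RC4-2B. The groups did not overlap, but RC4-2B replicate 2 stood far above the other libraries. The log2 fold change of 0.51 did not pass (standard error 0.20, edgeR adjusted p = 0.20), and without that replicate it was 0.22 (edgeR adjusted p = 0.10). ARNT, the common partner, had 59.9 to 64.9 CPM in C4-2B and 69.8 to 81.9 CPM in RC4-2B (log2 fold change 0.23, edgeR adjusted p = 0.27). The prolyl hydroxylases EGLN1 and EGLN3 had log2 fold changes of 0.11 and 0.26, and both had overlapping groups. EGLN1 shares 55.8% of its exon bases with another gene model in GENCODE release 44. That model has no row among the deposited counts, and an effect on the counts of EGLN1 was not tested.

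Of the 11 HIF targets outside glycolysis, 9 were tested and 0 passed with edgeR in all 6 libraries. In the same test 5 were higher and 1 lower at an unadjusted p under 0.05, beside 12% and 9.42% of all tested genes. DESeq2 called 2 higher (BNIP3L and P4HA2), beside 3.28% of all genes. The CPM of the lines did not overlap for 7 of the 9, with 5 (55.6%) higher and 2 (22.2%) lower, beside 17% and 17.1% of all tested genes. BNIP3, BNIP3L, P4HA1, P4HA2 and KDM3A were higher in RC4-2B in every library, and VEGFA and DDIT4 were lower. The list therefore held genes of both directions, with log2 fold changes from -0.99 for DDIT4 to 0.67 for BNIP3L.

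BNIP3 and BNIP3L encode mitochondrial outer membrane proteins that direct mitochondria to autophagy. BNIP3, whose promoter window is shown above with 6 matches, had 172, 171 and 167 CPM in C4-2B and 212, 214 and 209 CPM in RC4-2B. The libraries of each line lay within a few CPM of each other. Its log2 fold change was 0.32 (standard error 0.09, edgeR adjusted p = 0.12), with an edgeR adjusted p of 0.034 with the GC correction and 0.014 without RC4-2B replicate 2. It did not pass with DESeq2 (adjusted p = 0.107). BNIP3L had 83.8, 86.0 and 97.4 CPM in C4-2B and 127, 185 and 112 CPM in RC4-2B. RC4-2B replicate 2 was again the highest library. The log2 fold change of BNIP3L was 0.67 (standard error 0.19, edgeR adjusted p = 0.11). It was 0.43 without RC4-2B replicate 2 (edgeR adjusted p = 0.0080) and 0.45 with the GC correction (edgeR adjusted p = 0.045). Among the 18 alternatives run, BNIP3 passed in 4 and BNIP3L in 5.

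P4HA1 and P4HA2 encode the catalytic subunits of collagen prolyl 4-hydroxylase. P4HA2 (chr5:132191838-132295315, minus strand) had 13.0, 12.4 and 10.4 CPM in C4-2B and 19.7, 18.8 and 16.6 CPM in RC4-2B. The groups were well apart and no library stood out. The difference was 0.62 on the log2 scale (standard error 0.15, edgeR adjusted p = 0.081), with an adjusted p of 0.029 from DESeq2 and 0.012 from edgeR without RC4-2B replicate 2. With the GC correction it was 0.51 and did not pass (edgeR adjusted p = 0.054). P4HA1 (chr10:73007217-73096974, minus strand) had 63.2, 62.6 and 68.5 CPM in C4-2B and 79.3, 119 and 80.7 CPM in RC4-2B. RC4-2B replicate 2 stood above the other libraries of that line. For P4HA1 the log2 fold change was 0.52 (standard error 0.17, edgeR adjusted p = 0.15), and 0.30 without that replicate (edgeR adjusted p = 0.032). KDM3A, a histone H3 lysine 9 demethylase, had 23.3 to 29.3 CPM in C4-2B and 33.0 to 39.0 CPM in RC4-2B. The log2 fold change of KDM3A was 0.44 (edgeR adjusted p = 0.13) and 0.30 with the GC correction (edgeR adjusted p = 0.10). Among the 18 alternatives run it passed in 1, without RC4-2B replicate 2 (0.37, edgeR adjusted p = 0.043). P4HA2 passed in 4 of them and P4HA1 in 2.

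DDIT4 (chr10:72273920-72276036, plus strand), an inhibitor of mTORC1 signalling, had the highest FPKM of the HIF targets in C4-2B, 55.5, and 28.2 in RC4-2B. Its CPM was 117, 126 and 139 in C4-2B, against 114, 20.8 and 58.0 in RC4-2B. The groups were separated by the small gap between the lowest C4-2B library and RC4-2B replicate 1, and the RC4-2B libraries spread over a wide range. Its log2 fold change of -0.99 did not pass (standard error 0.48, edgeR adjusted p = 0.26), and it was -0.57 without RC4-2B replicate 2 (edgeR adjusted p = 0.058) and -1.69 without RC4-2B replicate 1 (edgeR adjusted p = 0.057). It passed where no filter on low counts was used (edgeR adjusted p = 0.011). VEGFA, the angiogenic growth factor, had 81.9, 93.9 and 92.9 CPM in C4-2B and 81.8, 52.8 and 66.3 CPM in RC4-2B (log2 fold change -0.42, edgeR adjusted p = 0.20). Its highest RC4-2B library lay just under its lowest C4-2B library, and the log2 fold change was -0.28 without RC4-2B replicate 2.

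The remaining 4 HIF targets were near the floor or had overlapping groups. CA9, the carbonic anhydrase often used as a hypoxia marker, had the lowest level, with 0 reads in each C4-2B library and 2, 1 and 0 in RC4-2B, at or under 3 counts throughout. ADM, the vasodilator peptide adrenomedullin, had 3, 0 and 0 reads in C4-2B, against 1, 6 and 2 in RC4-2B. No fold is given for either gene. CA12, a related membrane carbonic anhydrase, and ANKRD37 had overlapping groups, with log2 fold changes of -0.03 and -0.11. ANKRD37 shares 40.4% of its exon bases with UFSP2 on the opposite strand, and whether the counting used strand is not given in the sources used here.

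The 16 glycolytic enzymes were all tested, and 0 passed with edgeR in all 6 libraries. In that test 3 were higher and 1 lower at an unadjusted p under 0.05, beside 12% and 9.42% of all tested genes, and DESeq2 called 1 (ALDOC) higher, beside 3.28%. The groups overlapped for 12 of the 16, and the 3 higher (18.8%) and 1 lower (6.25%) of the others were near or under the 17% and 17.1% of all tested genes. HK1, GPI and ALDOC were higher in every RC4-2B library and PFKL was lower. The summed FPKM of the 16 enzymes was 2430 ± 111 in C4-2B and 2618 ± 216 in RC4-2B (SD, n = 3), or 0.982% and 1.09% of all FPKM. The sums of the lines overlapped, from 2354 to 2558 and from 2400 to 2832.

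Levels per length differed far more between steps of the pathway than between the lines. GAPDH, which oxidises glyceraldehyde 3-phosphate, had the highest FPKM of the enzymes, 788 in C4-2B and 859 in RC4-2B. It was followed in C4-2B by ENO1 (397) and TPI1 (383), and ALDOA had the lowest FPKM, 4.35 in C4-2B and 4.11 in RC4-2B. Of the exon bases of ALDOA, 42.8% are shared on the same strand with another gene model, which received 42 to 60 reads in C4-2B and 11 to 49 in RC4-2B, so the level of ALDOA may be understated. Its CPM was 18.7, 19.5 and 18.7 in C4-2B, against 24.2, 8.49 and 20.7 in RC4-2B, and its log2 fold change of -0.10 turned to 0.24 without RC4-2B replicate 2 (edgeR adjusted p = 0.20). GAPDH, PGK1 and LDHA have processed pseudogenes whose reads may not be separated from theirs. The plot of FPKM in pathway order shows these levels.

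**Figure D2:**
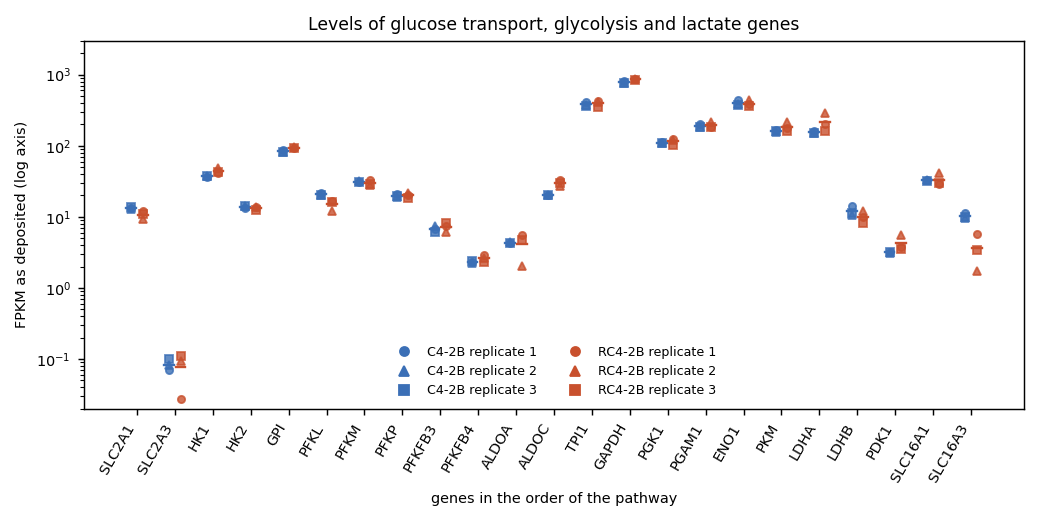
FPKM as deposited (y axis, log scale) of the glucose transporters, glycolytic enzymes, regulators and lactate transporters in the order of the pathway (x axis). Symbols are single libraries, blue for C4-2B and red for RC4-2B, and short lines are the means of 3 libraries. GAPDH is highest, with means of 788 and 859, SLC2A3 is lowest, and SLC16A3 has means of 10.4 in C4-2B and 3.63 in RC4-2B.

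ALDOC (chr17:28573115-28577264, minus strand), the brain-type aldolase, had the smallest p-value of the glycolytic enzymes. It had 65.6, 66.8 and 66.7 CPM in C4-2B and 107, 86.0 and 97.6 CPM in RC4-2B. All 3 RC4-2B libraries were above all C4-2B libraries, and C4-2B varied little. The log2 fold change was 0.54 (standard error 0.12) and missed the threshold in all 6 libraries (edgeR adjusted p = 0.059). It passed with DESeq2 (adjusted p = 0.0074), with the GC correction (0.66, edgeR adjusted p = 0.0015) and without RC4-2B replicate 2 (0.62, edgeR adjusted p = 0.00027). With any other single library left out it was not called (edgeR adjusted p up to 0.28). Among the 18 alternatives run it passed in 6. ALDOC and SLC16A3 are on chromosome 17. The median log2 fold change of its 704 tested genes above 2 log2 CPM was 0.17, and 0.26 with the GC correction. The part of the chromosome in the values of ALDOC and SLC16A3 was not tested.

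Among the other steps, PFKL, the liver-type phosphofructokinase (chr21:44300051-44327376, plus strand), had a log2 fold change of -0.50 (edgeR adjusted p = 0.13). Its CPM was 203 to 219.5 in C4-2B, against 166, 114 and 162 in RC4-2B. The groups did not overlap, and RC4-2B replicate 2 was the lowest. Without that replicate the difference was -0.35 and passed (edgeR adjusted p = 0.010). With the GC correction it was -0.05 in all 6 libraries (edgeR adjusted p = 0.82) and -0.20 without that replicate (edgeR adjusted p = 0.086). HK1, which phosphorylates glucose, had 259 to 262 CPM in C4-2B and 291 to 329 CPM in RC4-2B (log2 fold change 0.23, edgeR adjusted p = 0.22). LDHA, which makes lactate, had 1129, 1067 and 1033 CPM in C4-2B and 1405, 1924 and 1112 CPM in RC4-2B. One C4-2B library lay above the lowest RC4-2B library, and the log2 fold change of 0.46 did not pass (edgeR adjusted p = 0.20). It was 0.23 without RC4-2B replicate 2 (edgeR adjusted p = 0.13), and it passed where no filter on low counts was used (0.45, edgeR adjusted p = 0.040).

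The HIF targets outside glycolysis ran from -0.99 to 0.67 in log2 fold change and the enzymes from -0.50 to 0.54. The median log2 fold change of the HIF targets outside glycolysis was 0.32 over 9 genes, of which 5 were above 0 and 4 below. That of the glycolytic enzymes was 0.013 over 16 genes, of which 10 were above 0 and 6 below, beside 0.0063 over all tested genes. In single RC4-2B libraries, measured against the C4-2B mean, the HIF targets had medians of 0.31, 0.33 and 0.30, and the enzymes had 0.14, 0.072 and -0.081. With the GC correction these medians became 0.28, 0.28 and 0.19 for the HIF targets and 0.12, 0.31 and -0.040 for the enzymes, so that in RC4-2B replicate 2 the order of the lists turned. Without the correction, the median of the 9 HIF targets was the value of BNIP3 itself, also in RC4-2B replicates 2 and 3. In replicate 1 it was the value of ANKRD37. It was thus the level of the middle gene in a list of both directions. With the other HIF targets described below added, the median log2 fold change was 0.10 over 38 tested genes. The members were listed by name with earlier results known, and no test of a list was made.

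**Figure D3:**
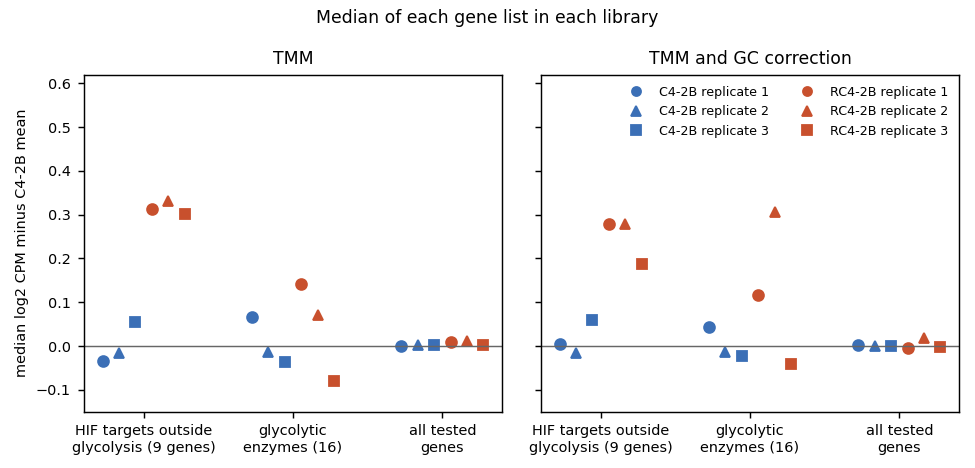
Median over the genes of each list (x axis) of log2 CPM minus the gene's C4-2B mean (y axis), in each library, with TMM scaling (left) and with TMM and the GC correction (right). Blue symbols are C4-2B libraries and red symbols RC4-2B. With TMM the RC4-2B median of the HIF targets is the value of ANKRD37 in replicate 1 and of BNIP3 in replicates 2 and 3. With TMM the RC4-2B medians of the HIF targets outside glycolysis lie at 0.30 to 0.33 and those of the enzymes at -0.081 to 0.14, while with the GC correction replicate 2 has 0.28 and 0.31.

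Glucose entry and lactate exit were each represented by 2 transporters. SLC2A1 (GLUT1), the widespread glucose transporter and the higher of its role at 13.3 FPKM in C4-2B and 10.7 in RC4-2B, had 69.6, 69.1 and 72.0 CPM in C4-2B and 62.9, 46.9 and 57.7 CPM in RC4-2B. The groups did not overlap, and the log2 fold change of -0.33 did not pass (standard error 0.13, edgeR adjusted p = 0.21). SLC2A3 (GLUT3) was near the floor, with 8, 10 and 12 reads in C4-2B, against 3, 11 and 13 in RC4-2B.

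SLC16A3 (MCT4; chr17:82228397-82261129, plus strand), a lactate exporter typical of glycolytic cells, had the lowest log2 fold change among the 38 tested members. Its CPM was 115, 97.0 and 101 in C4-2B, against 57.5, 16.5 and 34.3 in RC4-2B. Every RC4-2B library was below every C4-2B library, and the RC4-2B libraries differed widely among themselves. The means were 104 ± 9.3 and 36.1 ± 20.6 CPM (SD, n = 3), which is 2.89-fold lower. The log2 fold change of -1.53 (standard error 0.37) missed the threshold in all 6 libraries (edgeR adjusted p = 0.075). It passed with DESeq2 (adjusted p = 0.00025) and with the GC correction (-1.25, edgeR adjusted p = 0.0042). It also passed without RC4-2B replicate 1 (edgeR adjusted p = 0.027) or replicate 2 (-1.18, edgeR adjusted p = 0.00022). With any other single library left out it was not called (edgeR adjusted p up to 0.31). Among the 18 alternatives run it passed in 7. SLC16A1 (MCT1), the more abundant transporter of the pair at 32.6 FPKM in C4-2B and 33.3 in RC4-2B, had 189 to 197 CPM in C4-2B and 170, 234 and 176 CPM in RC4-2B. Its groups overlapped, and its log2 fold change of 0.00 became -0.13 with the GC correction.

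The regulators of glycolytic flux had overlapping groups, except PDK1, the kinase that restrains pyruvate dehydrogenase. PFKFB3 and PFKFB4, which make and break the activator of phosphofructokinase, had the highest and lowest FPKM of the role, 6.77 and 2.30 in C4-2B, against 7.25 and 2.60 in RC4-2B. PFKFB3 had 41.9 to 50.6 CPM in C4-2B and 39.7 to 55.3 CPM in RC4-2B, and PFKFB4 had 15.3 to 16.0 and 15.6 to 19.6 CPM. PDK1 had 54.1, 52.6 and 52.8 CPM in C4-2B and 63.6, 87.5 and 59.0 CPM in RC4-2B. Its log2 fold change of 0.40 did not pass (edgeR adjusted p = 0.20), and it was 0.21 without RC4-2B replicate 2 (edgeR adjusted p = 0.14).

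Related genes were compared as FPKM ratios within a library, which do not depend on library scaling but were not corrected for GC content. Of 12 listed pairs, 11 were tested with a two-sided exact permutation test, whose smallest p for 3 against 3 libraries is 0.1. The ratios of 7 pairs did not overlap between the lines and had that p (adjusted p = 0.157 over the 11 pairs, exact permutation test), so no pair could pass. The ratio of EPAS1 to HIF1A was 0.0085, 0.0086 and 0.012 in C4-2B, against 0.032, 0.015 and 0.021 in RC4-2B, a mean log2 difference of 1.20. EPAS1 thus had a larger share of the RNA of the 2 subunits in every RC4-2B library, although HIF1A remained far above it. The ratio of SLC16A3 to SLC16A1 was 0.351, 0.291 and 0.315 in C4-2B, against 0.20, 0.0415 and 0.115 in RC4-2B, a mean log2 difference of -1.69, or -1.07 without RC4-2B replicate 2.

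Ratios of enzyme isoforms were also apart between the lines. The ratio of LDHB to LDHA was 0.0866, 0.0691 and 0.0744 in C4-2B, against 0.0493, 0.0416 and 0.0502 in RC4-2B (mean log2 difference -0.70). LDHB shares 33.4% of its exon bases with another gene model, which received at most 1 read in a library. Whether shared reads were dropped is not known, so the level of LDHB may be understated. The ratio of ALDOC to ALDOA was 4.57 to 4.76 in C4-2B, against 5.91, 13.5 and 6.31 in RC4-2B (0.77, or 0.39 without RC4-2B replicate 2), and was highest in the library with the lowest ALDOA. Since ALDOA shares 42.8% of its exon bases on the same strand with another gene model, its level may be understated and this ratio overstated. The ratios of PFKM and PFKP to PFKL were higher in RC4-2B, by 0.44 and 0.52 on the log2 scale (the latter by 0.31 without RC4-2B replicate 2). Transcript GC content was 64.1% for PFKL, against 51.5% for PFKM and 54.5% for PFKP. With the GC correction the log2 fold changes were -0.044 for PFKM, 0.11 for PFKP and -0.051 for PFKL. The corrected values of PFKL were -0.24, 0.21 and -0.16 in RC4-2B replicates 1, 2 and 3, against the C4-2B mean. With the correction and without RC4-2B replicate 2, the log2 fold changes were -0.0082 for PFKM, -0.011 for PFKP and -0.20 for PFKL. The part of GC content in these ratios was not tested. The ratio of HK2 to HK1 differed by -0.33. The groups of EGLN3 to EGLN1, P4HA2 to P4HA1, BNIP3 to BNIP3L and PFKFB4 to PFKFB3 overlapped, with mean log2 differences of 0.15, 0.12, -0.32 and 0.080, and that of BNIP3 to BNIP3L was -0.12 without RC4-2B replicate 2. SLC2A3 was at 3 reads in 1 library, and its ratio to SLC2A1 was not tested.

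**Figure D4:**
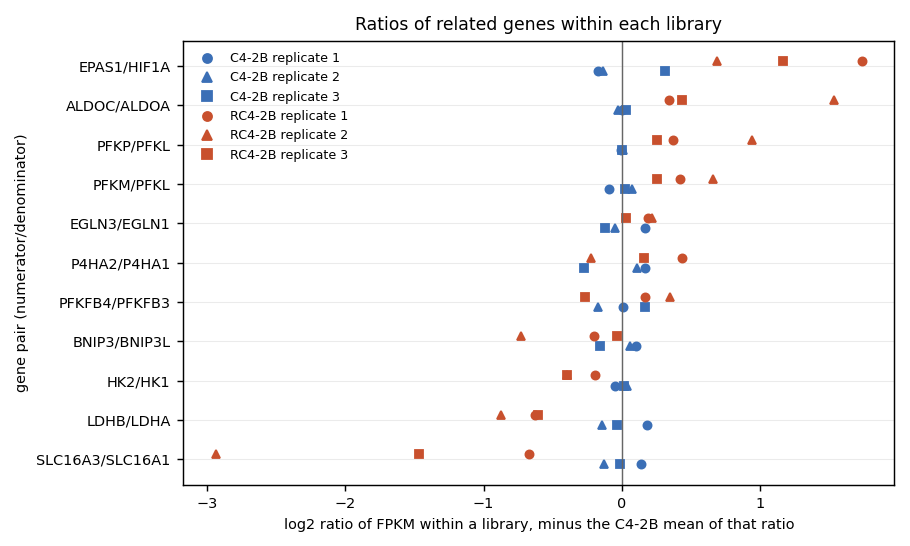
Log2 FPKM ratio of 11 gene pairs within each library (x axis), minus the mean of that ratio over the C4-2B libraries, by pair (y axis). Blue symbols are C4-2B and red symbols RC4-2B, with 1 symbol shape per replicate, and in HK2/HK1 the points of RC4-2B replicates 2 and 3 coincide. The ratios do not overlap for 7 pairs, from 1.20 for EPAS1/HIF1A to -1.69 for SLC16A3/SLC16A1 in their mean difference.

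The members varied more among the RC4-2B libraries than among the C4-2B libraries. The range over 3 libraries had a median of 0.35 log2 CPM in RC4-2B and 0.12 in C4-2B, and it was wider in RC4-2B for 30 of 38 members. RC4-2B replicate 2 lay over 0.5 log2 CPM outside the range of replicates 1 and 3 for 7 members. Its deviation from the mean of the other 2 libraries was -1.97 for DDIT4, -1.42 for SLC16A3 and -1.38 for ALDOA, and 0.74 for HIF1A, 0.63 for BNIP3L and 0.62 for LDHA. Across the 38 members, which share this library and its depth, the deviation had a Spearman correlation of -0.74 with the GC content of the longest transcript, given as a description. The trend was not particular to the members. Over 11259 genes, the log2 CPM difference of RC4-2B replicate 2 minus 3 had a Spearman correlation of -0.67 with GC content. It was 0.75 for replicate 1 minus 2 and 0.38 for replicate 1 minus 3. Transcripts of HIF1A (36.4% GC) and BNIP3L (37.4%) were among the lowest in GC, and those of PFKL (64.1%) and SLC16A3 (62.7%) the highest. The part of this library in the differences was not tested beyond the values without it.

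**Figure D5:**
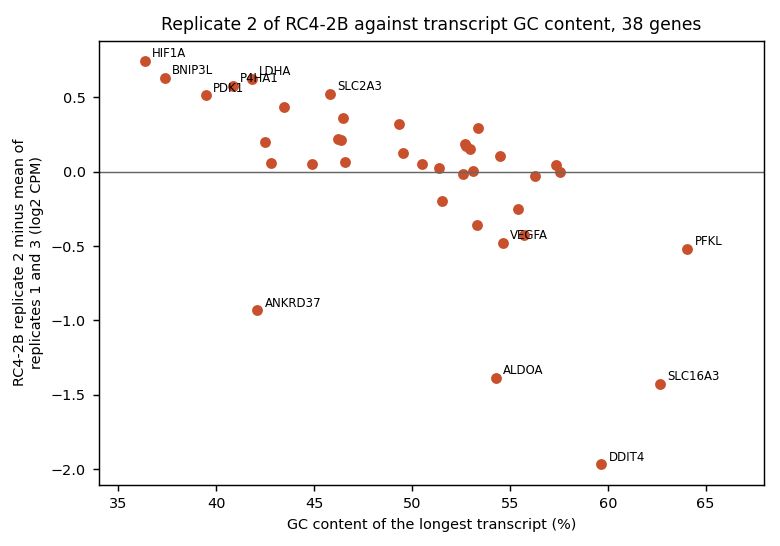
Deviation of RC4-2B replicate 2 from the mean of RC4-2B replicates 1 and 3 in log2 CPM (y axis) against the GC content of the longest transcript in percent (x axis), 1 point per tested member. The points fall from 0.74 for HIF1A at 36.4% GC to -1.97 for DDIT4 at 59.7% and -1.42 for SLC16A3 at 62.7%, with a Spearman correlation of -0.74.

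The remaining genes of the pathways were taken from lists that hold no member. Of 34 other HIF targets 29 were tested. With edgeR 1 (NDRG1) was higher and 0 were lower, beside 1.08% and 0.903% of all tested genes. In that test 5 were higher and 2 lower at an unadjusted p under 0.05, beside 12% and 9.42% of all tested genes. DESeq2 called NDRG1 higher and 1 lower, STC2 (log2 fold change -0.65, adjusted p = 0.0042), where it called 3.28% of all genes higher and 2.64% lower. With the GC correction edgeR called 2 higher (NDRG1 and PLOD1) and 2 lower, where 4.36% and 3.25% of all genes were. The 2 lower were STC2 (-0.65, edgeR adjusted p = 0.0091) and LOX (-1.30, edgeR adjusted p = 0.028). Without the correction edgeR gave -0.64 for STC2 (adjusted p = 0.063) and -1.09 for LOX (adjusted p = 0.13), and PLOD1, STC2 and LOX are named here after their values were seen. The groups did not overlap for 7 higher and 7 lower of the 29 (24.1% each), beside 17% and 17.1% of all tested genes. Their median log2 fold change was 0.10. NDRG1, a stress-induced metastasis suppressor, had 173, 159 and 168 CPM in C4-2B and 253, 270 and 227 CPM in RC4-2B, with no overlap. It rose with a log2 fold change of 0.59 (standard error 0.11, edgeR adjusted p = 0.032). The call was lost without C4-2B replicate 1 (edgeR adjusted p = 0.17), 2 (0.21) or 3 (0.18) and without RC4-2B replicate 3 (0.081).

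Of 31 other genes of glycolysis and gluconeogenesis 18 were tested. With edgeR 0 were higher and 1 (PCK2) was lower, beside 1.08% and 0.903% of all tested genes. In that test 3 were higher and 3 lower at an unadjusted p under 0.05, beside 12% and 9.42% of all tested genes. DESeq2 called 1 higher (SLC2A12, named after its values were seen) and 1 lower (PCK2), beside 3.28% and 2.64% of all genes. Of the 18, 3 (16.7%) were higher and 4 (22.2%) lower with no overlap between the groups, beside 17% and 17.1% of all tested genes. PCK2, the mitochondrial PEP carboxykinase, had 266, 243 and 207 CPM in C4-2B and 125, 73.9 and 105 CPM in RC4-2B. The groups did not overlap, and its log2 fold change was -1.24 (standard error 0.19, edgeR adjusted p = 0.020). It was not called without C4-2B replicate 1 (edgeR adjusted p = 0.14), 2 (0.094) or 3 (0.076) or without RC4-2B replicate 3 (0.087). Of 12 genes of pyruvate entry into mitochondria 11 were tested. With edgeR 0 were higher and 1 (MPC2) was lower, and 1 was higher and 1 lower at an unadjusted p under 0.05. DESeq2 called 0 higher and 1 (MPC2) lower. The shares of all genes in these tests are those given for the list before. MPC2, a subunit of the mitochondrial pyruvate carrier, had 318, 292 and 290 CPM in C4-2B and 186, 222 and 168 CPM in RC4-2B. The groups did not overlap, and the log2 fold change was -0.64 (standard error 0.12, edgeR adjusted p = 0.041). Its call was lost without C4-2B replicate 1 (edgeR adjusted p = 0.23), 2 (0.19) or 3 (0.17) and without RC4-2B replicate 1 (0.060) or 3 (0.14). On the opposite strand, MPC2 shares 21.8% of its exon bases with DCAF6 and SLC2A12 shares 51.2% with TBPL1. Whether the counting used strand is not given, and an effect on their counts was not tested.

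Of 9 other oxygen sensing genes 8 were tested and 0 passed with edgeR or DESeq2 in all 6 libraries. By edgeR 0 were higher and 4 lower at an unadjusted p under 0.05, beside 12% and 9.42% of all tested genes. With the GC correction edgeR called 2 lower, RBX1 (log2 fold change -0.42, edgeR adjusted p = 0.049) and ELOC (-0.46, edgeR adjusted p = 0.047), where 3.25% of all genes were, and without RC4-2B replicate 2 as well it called ELOB too (-0.25, edgeR adjusted p = 0.042), where 6.59% of all genes were. ELOC and ELOB are named here after their values were seen. Of the 8, 0 were higher and 4 lower with no overlap between the groups, beside 17% and 17.1% of all tested genes. In the fit without the correction the smallest p-values were those of EGLN2, another prolyl hydroxylase, and RBX1, a subunit of the VHL ligase. EGLN2 had 2.45, 2.43 and 1.99 CPM in C4-2B and 1.44, 0.798 and 1.47 CPM in RC4-2B (log2 fold change -0.89, edgeR adjusted p = 0.17). It shares 30.6% of its exon bases with a readthrough model, RAB4B-EGLN2, which had 0 reads. Whether shared reads were dropped is not known, so the level of EGLN2 may be understated. RBX1 had 90.8 to 98.0 CPM in C4-2B and 74.0 to 82.2 CPM in RC4-2B (log2 fold change -0.29, edgeR adjusted p = 0.18). Neither set of libraries overlapped between the lines.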

How the data were processed

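RNA of 3 C4-2B and 3 RC4-2B cultures was sequenced, and each column was assigned by the name that the sample labels give it. Reads were aligned by the authors with STAR on GRCh38. The deposited counts are whole reads per gene, not normalized, and the FPKM that the authors deposited rest on those counts, gene length and a library total. How reads were counted (program, strand, shared reads, annotation release) is not given in the sources used here, so paralogs and overlapping genes are uncertain.

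The 40 genes and all lists were chosen with earlier results of these data known. Counts of all genes were fitted in R 4.3.3 with edgeR 4.0.16 (TMM, filterByExpr with a minimum count of 10, glmQLFit and glmQLFTest with the cell line as the term), and p-values were adjusted by Benjamini-Hochberg over 15054 genes with 0.05 as the limit. The standard error of a log2 fold change is its size over the root of its F statistic. CPM are TMM-scaled. For the GC correction, the deviation of log2 CPM in each library was smoothed by lowess (span 0.2) on the GC content of the longest GENCODE 44 transcript, which 99.6% of tested genes had, and entered as an offset. It also removes any mean GC trend between the lines. Members were named if called, if the groups did not overlap and the log2 fold change was at least 0.5 in size, or if highest or lowest in FPKM in their role. From the other lists, called genes or else the 2 with the smallest p were named. BNIP3, KDM3A, VEGFA, ARNT, HK1, PFKL, LDHA and PDK1 were also described, as genes whose groups did not overlap (except LDHA) or that an alternative called, after their values were seen.

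Alternatives were DESeq2 1.42.0, RLE and upper-quartile scaling, 2 other filters, the GC correction, a replicate block, each library left out and limma 3.58.1 on log2(FPKM + 1) and log2(FPKM + 0.1), with a filter (FPKM of 1 or more in 3 or more libraries) or without. The GC correction without RC4-2B replicate 2 was added after seeing the data. The fits were tested on simulated data. Libraries of a line differed by more than sampling noise, so none was a copy of another. They are labelled biological replicates, and the separation of their cultures is not described further. With 15707134 to 18052517 counts per library, levels under 0.170 to 0.188 CPM, which 3 counts give, are not detectable.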

Additional observations from a re-analysis of the deposited data

How the results depend on the processing

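Counts of calls depended on the processing, and the cause was not tested. Against 162 genes higher and 136 lower in RC4-2B, DESeq2 gave 500 and 402, the GC correction 656 and 490, the GC correction without RC4-2B replicate 2 1036 and 1013, no filter on low counts 604 and 646, limma on log2(FPKM + 0.1) 39 and 47, limma on log2(FPKM + 1) 46 and 58, and the same without a filter 13 and 23. Against 1 member higher and 0 lower, these gave 4 and 1, 4 and 1, 5 and 2, 5 and 3, and 0 and 0 with each limma fit. The filter on FPKM removed EPAS1 from 2 of these, and without the filter it was tested and not called (log2 fold change 0.38, limma adjusted p = 0.13). Leaving out single libraries gave 13 to 1000 genes higher, 31 to 925 lower, 0 to 7 members higher and 0 to 2 lower. RLE and upper-quartile scaling and a mean of at least 10 counts kept all counts within 1.5 times.

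Whether the replicate numbers pair the libraries could not be told from the counts. The deviations of same-numbered libraries had correlations of 0.31, 0.18 and -0.073. Libraries numbered 1 and 2 correlated best with their own number, and those numbered 3 did not. A replicate block gave 55 genes higher and 74 lower, with 0 members higher and 0 lower, and the replicate block with the GC correction gave 645 and 566 genes, with 4 members higher and 1 lower.

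The median log2 fold change of the HIF targets outside glycolysis was 0.32. It became 0.24 with the GC correction without RC4-2B replicate 2 and 0.34 with limma on log2(FPKM + 0.1). It was 0.054 with limma on log2(FPKM + 1) without a filter and 0.44 without a filter on low counts (11 genes in both). When single libraries were left out it was 0.30 to 0.32, a range that BNIP3 alone also had. Without RC4-2B replicate 2, the log2 ratio differences of ALDOC to ALDOA, SLC16A3 to SLC16A1, PFKP to PFKL and BNIP3 to BNIP3L were smaller by over 1.5 times, at 0.39, -1.07, 0.31 and -0.12. The ratio of P4HA2 to P4HA1 ranged from -0.032 to 0.30 with single libraries left out (-0.012 without C4-2B replicate 3, -0.032 without RC4-2B replicate 1), and that of PFKFB4 to PFKFB3 from -0.052 to 0.26 (-0.0065 without C4-2B replicate 2, -0.052 without RC4-2B replicate 2). Of the members described, 8 changed the sign of their log2 fold change, none of them called on either side. SLC16A1 went from 0.00 to -0.0036 with DESeq2, -0.0050 with RLE scaling, -0.00076 without a filter, -0.011 with the replicate block, -0.13 with the GC correction, -0.14 with both and -0.21 with the GC correction without RC4-2B replicate 2. That last setting also gave 0.26 for ALDOA, 0.091 for ANKRD37 and -0.0089 for EGLN1. VHL was at 0.0041 with limma on log2(FPKM + 0.1) and at 0.0040 on log2(FPKM + 1) with or without a filter. With single libraries left out the ranges were -0.38 to 0.24 for ALDOA, -0.37 to 0.14 for ANKRD37, -0.093 to 0.055 for CA12, -0.027 to 0.20 for PFKFB3, -0.16 to 0.092 for SLC16A1, -0.47 to 0.27 for SLC2A3 and -0.040 to 0.021 for VHL. Depth limits CA9, ADM and SLC2A3, and with 3 libraries a line no exact permutation test can go below 0.1.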
